A study of Mus musculus with 11 samples.

Results

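The protein-coding genes that flank *Rspo2* on mouse chromosome 15 were described in facial process explants of embryos at embryonic day 10.5 (E10.5). *Rspo2* (ENSMUSG00000051920) lies on the minus strand of chromosome 15 of GRCm38 from 43020794 to 43170826, and a gene was a member when its body overlapped the region that reaches 10 megabases (Mb) beyond *Rspo2* on either side. *Rspo2* itself and 4 further genes of the region (*Fzd6*, *Grhl2*, *Osr2* and *Rpl30*) were not counted as members. The rule gave 65 of the 38561 genes in the count files, 46 at lower and 19 at higher coordinates than *Rspo2*. Members were set by position, except that *Rspo2* and the 4 further genes were left out by name. The choice was made with earlier results of these data known. Of the 65, 54 passed the low-count filter and were tested. The other 11 had at most 10 counts in any library, and 1 of them had 0 counts in all 11 libraries.

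The explants held the nasal processes together with both parts of the first branchial arch, mandibular and maxillary. The paper describes the Wnt9bKO mice as of mixed genetic background, and it names no strain for the sequenced embryos. The 11 libraries were 2 labelled wild type (wt), 3 labelled Rspo2KO (homozygous for an *Rspo2* null allele), 3 labelled Wnt9bKO (homozygous mutant for *Wnt9b*, which is on another chromosome) and 3 labelled DKO (both mutations). The *Rspo2* null allele carries a *LacZ* and neomycin-resistance cassette in the locus. A version with the cassette removed was also kept by the study, and which of the pair was sequenced is not given in the sources used here. The labels do not say which libraries came from separate embryos, so the p-values measure the spread between these samples, which may be technical.

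R-spondins are secreted proteins that raise the response of cells to WNT ligands, and in the facial processes *Rspo2* is made by the mesenchyme while *Wnt9b* is made by the ectoderm. A null allele made by gene targeting is inherited together with the DNA around it. In mice of mixed strain the chromosome that carries the mutation can therefore differ from the wild-type chromosome at neighbouring genes, and a cassette left in a locus can act on neighbouring promoters. The genes beside a targeted locus are for this reason often examined apart from the rest of the genome.

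Total counts per library ranged from 11136166 to 18017344. The *Rspo2* level, in CPM (read counts scaled to a common library size after TMM normalization), was 14.8 and 16 in wt. The Rspo2KO libraries had 6.59, 4.8 and 4.74. It was 2.86 in the library labelled Wnt9bKO 2, against 18.1 and 22.8 in the other two, and 15.5 in the library labelled DKO 3, against 3.67 and 4.17 in the other two. These *Rspo2* counts go against both labels, so each comparison was also fitted without both libraries. All 8 facial mesenchyme markers examined were found, with a summed level of 827 to 885 CPM in wt, 580 to 611 in Rspo2KO, 527 to 1010 in Wnt9bKO and 649 to 729 in DKO. The library labelled Wnt9bKO 2 had the lowest sum of all, 527 CPM, against 1010 and 764 in the others of its label. Its sum of 6 forebrain and eye markers was the highest of all, 149 CPM, against 76.8 and 106. DKO 3 had a mesenchyme sum of 729 CPM, against 666 and 649. The part of these sums in the *Rspo2* levels was not tested. Libraries also differed by label in features outside the 65 genes. The summed level of small nuclear RNA genes was 352 to 353 CPM in wt and 386 to 420 CPM in Rspo2KO, but 74.8 to 80.5 in Wnt9bKO and 70.1 to 82.7 in DKO. *Xist*, a transcript of female cells, had 680 to 906 CPM in wt and 1040 to 1470 CPM in DKO and below 2 CPM in the other libraries. The part of these differences in the results was not tested. In such bulk libraries, fewer cells of a type and less RNA per cell cannot be told apart.

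The 54 tested genes covered a wide range of expression. Their mean level over the 11 libraries ran from 0.512 CPM for *Erich5* to 396 CPM for *Ywhaz*, with a median of 29.4 CPM. Per kilobase of exon, the highest were *Eif3h*, a subunit of the translation initiation factor eIF3, at 140 CPM per kilobase, *Ywhaz*, which encodes the 14-3-3 zeta adaptor protein, at 96.3, and *Rad21*, a cohesin subunit, at 70.1. When the longest transcript was used as the length, *Pabpc1*, which encodes a protein that binds the poly(A) tail of mRNA, took the third place with 91.4 CPM per kilobase. Among the genes with few or no counts in these explants were *Trhr*, the receptor of thyrotropin-releasing hormone, with at most 5 counts, *Slc30a8*, a zinc transporter of pancreatic islets, with at most 4, and *Dcstamp*, which is needed for osteoclast fusion, with at most 2.

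The comparison of Rspo2KO with wt asks whether genes linked to the targeted locus differed in embryos labelled as *Rspo2* mutants. At an adjusted p below 0.05 in edgeR's two-sided quasi-likelihood test, none of the 54 genes was called, and 6 of all 17317 genes tested (0.0346%) were. *Rspo2* itself was not called in this fit either, at -1.53 (SE 0.64, edgeR adjusted p = 0.358). Without the libraries labelled Wnt9bKO 2 and DKO 3 it was called, at -1.54 (SE 0.18, adjusted p = 0.00222), and none of the 54 was. They were left out for their *Rspo2* counts, so that call is no test of the choice. With all libraries, 12 flanking genes (22.2%) had an unadjusted p below 0.05. The share was 11.9% of all genes and 13.9% of the 503 tested protein-coding genes on the rest of chromosome 15. With a change of over 1.5-fold also required there were 9 (16.7%), against 4.68% of all genes and 3.98% of the rest of chromosome 15. DESeq2 gave 4 genes below an adjusted p of 0.05 of the 43 to which it gave an adjusted p (9.30%, against 1.54% of all genes), and these were *Cthrc1*, *Laptm4b*, *Pkhd1l1* and *Rims2*. Without the low-count filter, edgeR called *Pabpc1*, *Snx31* and *Ywhaz* as well, 7 of 64 genes against 2.04% of all genes. The call of these genes thus depended on the tool and the filter.

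*Cthrc1* (ENSMUSG00000054196, 39076932 to 39087121, 3.93 Mb from *Rspo2*) encodes a secreted protein linked to planar cell polarity signaling. Its level was 14.4 and 18.5 CPM in wt and 8.91, 8.86 and 8.02 CPM in Rspo2KO. The Wnt9bKO libraries had 10.7, 8.94 and 10 CPM and the DKO libraries 9.10, 7.35 and 12.7 CPM. Every mutant library lay below both wt libraries, and among the mutant libraries the highest was the one labelled DKO 3. The log2 fold change of Rspo2KO against wt was -0.94 (SE 0.20), with an edgeR p of 0.000324 before and 0.182 after adjustment.

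*Rims2* (ENSMUSG00000037386, 39198261 to 39684372, 3.34 Mb away), a presynaptic active zone protein, showed the opposite direction. It was at 6.97 and 9.12 CPM in wt, 18.7, 14.3 and 13.1 CPM in Rspo2KO, 12.0, 17.8 and 15.6 CPM in Wnt9bKO and 16.3, 15.3 and 13.4 CPM in DKO. All 9 mutant libraries were above both wt libraries, whether or not their label included *Rspo2*. Rspo2KO against wt gave a log2 fold change of 0.92 (SE 0.21, edgeR adjusted p = 0.203). The summed level of 6 neuron markers was 493 to 530 CPM in wt, 588 to 649 in Rspo2KO, 301 to 435 in Wnt9bKO and 529 to 571 in DKO. The part of this level in the values of *Rims2* was not tested.

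*Laptm4b* (ENSMUSG00000022257, 34238028 to 34284302, 8.74 Mb away) and *Pkhd1l1* (ENSMUSG00000038725, 44457494 to 44601369, 1.29 Mb away) are named after their values were seen. *Laptm4b*, a lysosomal membrane protein, was at 61.1 and 71.5 CPM in wt and 103, 125 and 117 CPM in Rspo2KO, with no overlap. The libraries labelled Wnt9bKO had 41.9, 62.7 and 60.9 CPM, and those labelled DKO had 73.1, 85.8 and 47.8 CPM. Within the Wnt9bKO label the highest value was in library 2, and within the DKO label the lowest value was in library 3. *Pkhd1l1*, a large membrane protein related to fibrocystin, had 5.98 and 6.28 CPM in wt and 11.1, 10.3 and 11.4 CPM in Rspo2KO. It had 7.45, 6.02 and 4.8 CPM in Wnt9bKO and 7.93, 5.67 and 5.83 CPM in DKO. For *Pkhd1l1* the libraries labelled Rspo2KO stood above all others, and the DKO and Wnt9bKO libraries overlapped.

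**Figure D1:**
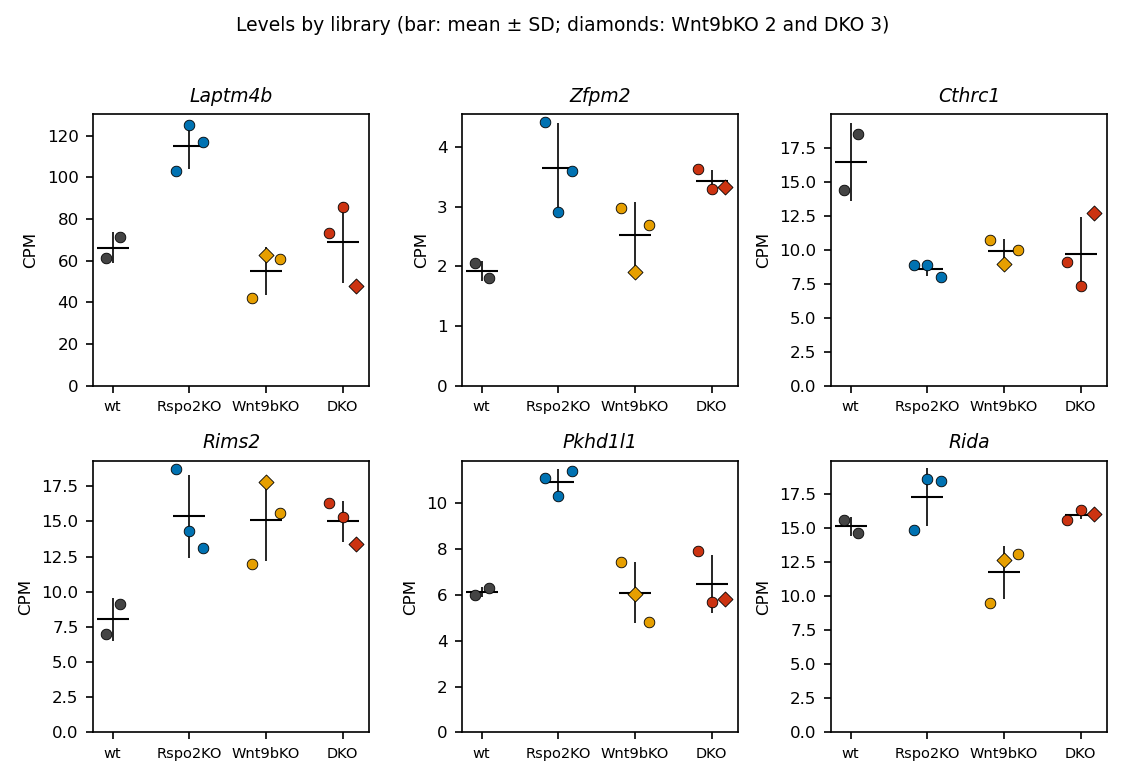
Level in CPM of the 6 flanking genes with the smallest p in the average *Rspo2* label effect, by genotype label. Points are libraries, the bar is the mean ± SD (n = 2 for wt, n = 3 for the mutant labels), and diamonds mark the libraries labelled Wnt9bKO 2 and DKO 3. *Laptm4b* was at 103 to 125 CPM in Rspo2KO and at most 85.8 CPM in every other library.

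Rspo2KO and wt libraries differed in *Xist* as well as in genotype, so a second comparison averaged the difference of Rspo2KO from wt and that of DKO from Wnt9bKO. This average *Rspo2* label effect has 1 *Xist*-high and 1 *Xist*-low label, and 1 label with and 1 without the *Wnt9b* mutation, on each side. No flanking gene was called (11 of all genes, 0.0635%). At an unadjusted p below 0.05 there were 13 of 54 (24.1%), against 9.38% of all genes and 10.3% of the rest of chromosome 15. The 13 were *Cthrc1*, *Emc2*, *Ext1*, *Kcnv1*, *Laptm4b*, *Pkhd1l1*, *Polr2k*, *Pop1*, *Rgs22*, *Rida*, *Rims2*, *Ywhaz* and *Zfpm2*. The median log2 fold change of the 54 genes was 0.03, against 0.01 over all genes, and the median of its absolute size was 0.14, against 0.11 over all genes and 0.10 on the rest of chromosome 15.

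The largest log2 fold changes of this average among the 13 were seen in lowly expressed genes. *Kcnv1*, a modifier subunit of potassium channels 1.94 Mb from *Rspo2*, had 0.82 (SE 0.32, edgeR adjusted p = 0.452) with libraries between 0.3 and 1.18 CPM. *Zfpm2* (ENSMUSG00000022306, 40655035 to 41104592, 1.92 Mb away), a cofactor of GATA transcription factors, was at 2.05 and 1.81 CPM in wt, 4.42, 2.91 and 3.60 in Rspo2KO, 2.98, 1.91 and 2.70 in Wnt9bKO and 3.64, 3.30 and 3.34 in DKO. Its average was 0.67 (SE 0.17, edgeR adjusted p = 0.214), with Rspo2KO above wt and DKO above Wnt9bKO in every library. For *Rgs22*, a regulator of G protein signaling known from testis, it was -0.65 (SE 0.29, adjusted p = 0.495), from Rspo2KO libraries at 0.3, 0.789 and 0.316 CPM against 0.983 and 1.33 CPM in wt.

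Among well expressed genes, *Laptm4b* had the largest average, 0.56 (SE 0.14), with an edgeR p of 0.00141 before and 0.214 after adjustment. Without the libraries labelled Wnt9bKO 2 and DKO 3, whose *Rspo2* counts go against their labels, it was 0.70 (SE 0.11) with an adjusted p of 0.0383, so that *Laptm4b* was the only flanking gene called, against 0.105% of all genes and 0 of 500 tested on the rest of chromosome 15. In that fit *Rspo2* itself was at -1.96 (SE 0.14, edgeR adjusted p = 1.40e-05), against -1.22 (SE 0.43, adjusted p = 0.375, not called) with all libraries. Both libraries were left out for their *Rspo2* counts, so this larger value followed from the choice and is no test of it. In the same fit 15 flanking genes (27.8%) had an unadjusted p below 0.05, against 8.7% of all genes. DESeq2 with all libraries also called *Laptm4b* alone (adjusted p = 0.0258), 1 of the 49 genes with an adjusted p, against 0.725% of all genes. Without the low-count filter edgeR called 5 of 64 (*Cthrc1*, *Laptm4b*, *Polr2k*, *Rims2* and *Zfpm2*), against 1.46% of all genes. Over all 20 alternatives the average of *Laptm4b* ran from 0.46 to 0.70 and its edgeR or DESeq2 adjusted p from 1.02e-05 to 0.917, the last without wt 1. For *Cthrc1* the average was -0.48 (SE 0.14, adjusted p = 0.274) and -0.64 (SE 0.12, adjusted p = 0.0730) without both libraries. Its DKO against Wnt9bKO part was -0.02 (SE 0.18), or -0.33 (SE 0.18) without both libraries. With all libraries that part was -0.01 (SE 0.17) for *Rims2*, 0.09 (SE 0.18) for *Pkhd1l1* and 0.43 (SE 0.22) for *Zfpm2*. Without both libraries it was 0.20 (SE 0.20), 0.15 (SE 0.23) and 0.29 (SE 0.25). With all libraries the averages of *Cthrc1*, *Rims2* and *Pkhd1l1* thus came mainly from Rspo2KO against wt (-0.94, 0.92 and 0.83).

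In DKO against Wnt9bKO no flanking gene was called by edgeR (0.121% of all genes) or DESeq2. *Rspo2* itself was not called by edgeR either (-0.91, SE 0.56, adjusted p = 0.959). Of the flanking genes, 5 (9.26%) had an unadjusted p below 0.05, against 5.63% of all genes. The 5 were *Kcnv1*, *Med30*, *Polr2k*, *Pop1* and *Rida*. Without both libraries that go against their labels there were 7 (13.0%), against 5.77% of all genes, and these were *Erich5*, *Laptm4b*, *Polr2k*, *Rida*, *Spag1*, *Trps1* and *Tspyl5*. *Laptm4b* went from 0.32 (SE 0.19) to 0.63 (SE 0.17, edgeR adjusted p = 0.369) in that fit. *Rida* (ENSMUSG00000022323, 34484021 to 34495255), an imine deaminase named after its values were seen, was at 9.48, 12.6 and 13.1 CPM in Wnt9bKO and 15.6, 16.3 and 16 CPM in DKO, with no overlap. It was at 15.6 and 14.6 CPM in wt and 14.8, 18.6 and 18.4 CPM in Rspo2KO, so only the Wnt9bKO libraries stood apart. *Pop1* (ENSMUSG00000022325, 34495304 to 34530648), the adjacent gene on the opposite strand and a subunit of RNase P and RNase MRP, was at 28.6, 55.3 and 33.2 CPM in Wnt9bKO and 29.2, 25.2 and 27.3 CPM in DKO. The log2 fold change of *Pop1* between these labels was -0.52 (SE 0.18, edgeR adjusted p = 0.610), with the single high value in the library labelled Wnt9bKO 2. Without both libraries that go against their labels *Pop1* fell against wt in Wnt9bKO as well, by 0.64 (SE 0.13, edgeR adjusted p = 0.00367), and in DKO by 0.83 (adjusted p = 0.000967), and DKO against Wnt9bKO gave -0.19 (SE 0.14).

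Whether the *Rspo2* label acted differently without and with the *Wnt9b* label was tested as an interaction, which is aligned with *Xist*. No flanking gene was called by edgeR (0.0635% of all genes) or DESeq2, and 9 (16.7%) had an unadjusted p below 0.05, against 9.45% of all genes. Among them *Rims2* had -0.93 (SE 0.27), *Cthrc1* 0.92 (SE 0.27) and *Snx31* 2.18 (SE 0.69), each with an edgeR adjusted p of 0.427. Without both libraries that go against their labels 8 genes (14.8%) had an unadjusted p below 0.05, against 8.28% of all genes, and the values were -0.71 (SE 0.28) for *Rims2*, 0.62 (SE 0.24) for *Cthrc1* and 1.37 (SE 0.59) for *Snx31*.

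The genes closest to *Rspo2* were examined 1 by 1. *Eif3e* (ENSMUSG00000022336, 43250058 to 43282719), a second eIF3 subunit and the nearest tested gene, begins 79232 bases beyond the end of *Rspo2*. Its level was 369 and 315 CPM in wt, 221, 297 and 291 CPM in Rspo2KO, 223, 285 and 325 CPM in Wnt9bKO and 255, 277 and 363 CPM in DKO. Rspo2KO lay below wt, by -0.34 on the log2 scale (SE 0.18, edgeR adjusted p = 0.472), and the average over both label pairs was -0.12 (SE 0.12) with all libraries and -0.20 (SE 0.12) without the libraries labelled Wnt9bKO 2 and DKO 3.

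*Emc2* (43477229 to 43527763, 0.306 Mb away), a subunit of the ER membrane protein complex, was at 41.4 and 38.6 CPM in wt, 36.4, 50.4 and 50 in Rspo2KO, 24.7, 34.4 and 31.5 in Wnt9bKO and 36.6, 35.2 and 39.3 in DKO. Its average effect was 0.24 (SE 0.11, edgeR adjusted p = 0.487), with Rspo2KO and wt overlapping and DKO above Wnt9bKO. *Angpt1* (42424723 to 42676977, 0.344 Mb away), which encodes a ligand of the endothelial receptor TIE2, ranged from 13.5 to 19.2 CPM over all libraries, and its average effect was 0.16 (SE 0.11). *Tmem74* (43864646 to 43870036, 0.694 Mb away), a lysosomal membrane protein linked to autophagy, was at 1.97 and 2.48 CPM in wt and 1.42, 1.15 and 1.52 CPM in Rspo2KO, a log2 fold change of -0.72 (SE 0.30, edgeR adjusted p = 0.358). Its DKO libraries, at 2.23, 1.87 and 2.25 CPM, overlapped wt.

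Farther out, *Oxr1* (1.16 Mb away), which protects cells against oxidative damage, had levels of 48.7 to 62.3 CPM and an average effect of 0.14 (SE 0.07). *Nudcd1* (1.20 Mb away), a NudC domain protein, had 52.4 to 67.5 CPM and an average of -0.02 (SE 0.09), or -0.04 (SE 0.10) without both libraries that go against their labels. *Lrp12* (3.08 Mb away), of the LDL receptor family, had 42.5 to 57.7 CPM and an average of -0.06 (SE 0.08), or -0.12 (SE 0.09) without both libraries. None of the 8 nearest genes, 4 on each side, passed the adjusted test in the average effect, and *Zfpm2* and *Emc2* were those with an unadjusted p below 0.05.

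Over distance, the 12 tested genes within 2 Mb of *Rspo2* had a median average effect of 0.15 on the log2 scale and a median absolute size of 0.18, and 4 of them (33.3%) had an unadjusted p below 0.05. The 10 genes from 2 to 5 Mb had a median of -0.01 and a size of 0.06, with 2 such genes (20%), and the 32 genes from 5 to 10 Mb had a median of 0.03 and a size of 0.14, with 7 (21.9%). The share was thus above that of the rest of chromosome 15 (10.3%) in each bin, and it did not fall steadily with distance. It rests on few genes per bin, and the median size from 2 to 5 Mb (0.06) was below that of the rest of chromosome 15 (0.1). A trend over distance was not tested. Within 1 Mb there were 4 genes, of which 1 (*Emc2*) had an unadjusted p below 0.05 in the average effect. By side, 9 of 37 genes at lower coordinates (24.3%) and 4 of 17 at higher coordinates (23.5%) did. Without both libraries named above the shares in the bins were 33.3%, 20% and 28.1%.

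In the single contrast of DKO against Wnt9bKO, all 12 genes within 2 Mb had a positive log2 fold change (0.03 to 0.95, median 0.16), where 8564 of the 17317 genes tested did. Without both libraries 10 of the 12 were positive, with a median of 0.14. In Rspo2KO against wt 8 of the 12 were positive, with a median of 0.10. Neighbouring genes share the same libraries and are not independent, and none of the 12 changes passed the adjusted test in either comparison.

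**Figure D2:**
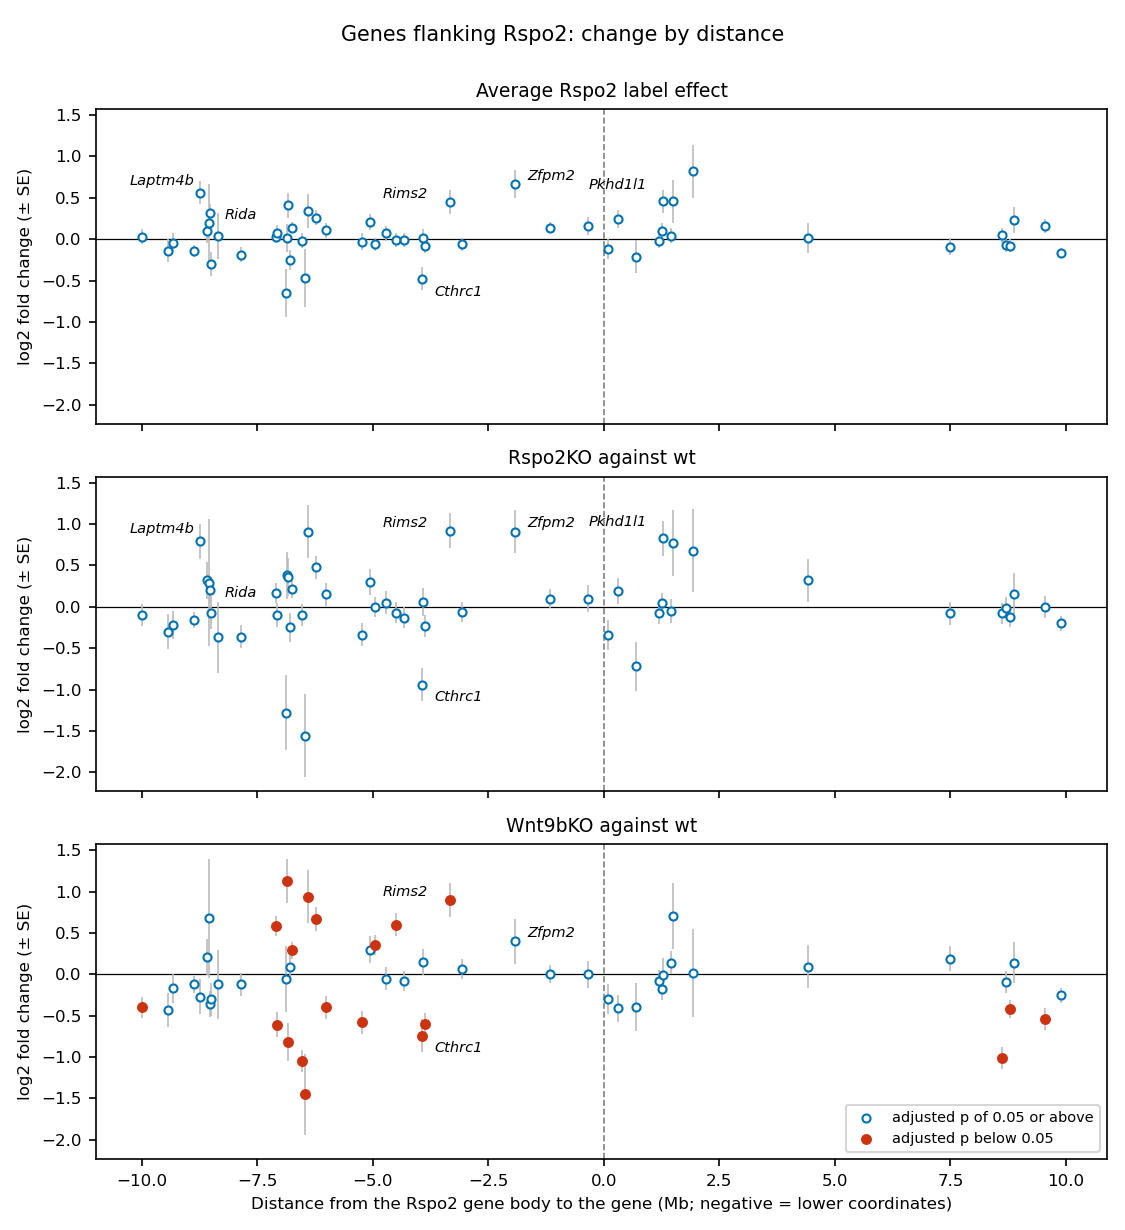
Log2 fold change (± SE) of the 54 tested genes against their distance from the *Rspo2* gene body in Mb, with negative distances for lower coordinates, for the average *Rspo2* label effect, Rspo2KO against wt and Wnt9bKO against wt. Filled points are genes with an edgeR adjusted p below 0.05, and there are none in the upper panels and 20 in the lowest, all of them farther than 2 Mb from *Rspo2*.

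The libraries were next read against their own *Rspo2* level. The 11 levels formed separate clusters, at 2.86 to 6.59 CPM and at 14.8 to 22.8 CPM, so no correlation over the libraries was computed. In order of rising *Rspo2* level, *Laptm4b* was at 62.7 CPM in Wnt9bKO 2, 85.8 and 73.1 in DKO 2 and 1, and 117, 125 and 103 in Rspo2KO 3, 2 and 1. It was then at 61.1 in wt 1, 47.8 in DKO 3, 71.5 in wt 2, 60.9 in Wnt9bKO 3 and 41.9 in Wnt9bKO 1. The library labelled Wnt9bKO 2 was thus the highest of its label, but its 62.7 CPM was close to the 60.9 CPM of Wnt9bKO 3 and lay between the wt values. The library labelled DKO 3 was the lowest of its label.

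For *Cthrc1* the same order of libraries gave 8.94, 7.35, 9.10, 8.02, 8.86, 8.91, 14.4, 12.7, 18.5, 10 and 10.7 CPM. Here Wnt9bKO 2 was the lowest of its label and DKO 3 the highest of its label, and *Cthrc1* was lower in Rspo2KO than in wt. *Rims2* ran the other way, with Wnt9bKO 2 the highest of its label at 17.8 CPM and DKO 3 the lowest of its label at 13.4 CPM, and *Rims2* was higher in Rspo2KO than in wt. *Pkhd1l1* gave no such order, since Wnt9bKO 2 at 6.02 CPM and DKO 3 at 5.83 CPM both lay between the other libraries of their labels. *Zfpm2* was higher in Rspo2KO than in wt, but Wnt9bKO 2 was the lowest of its label at 1.91 CPM. For *Zfpm2* DKO 3, at 3.34 CPM, lay between the other DKO libraries. These genes were picked from the same libraries, so their orders are given without a test.

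**Figure D3:**
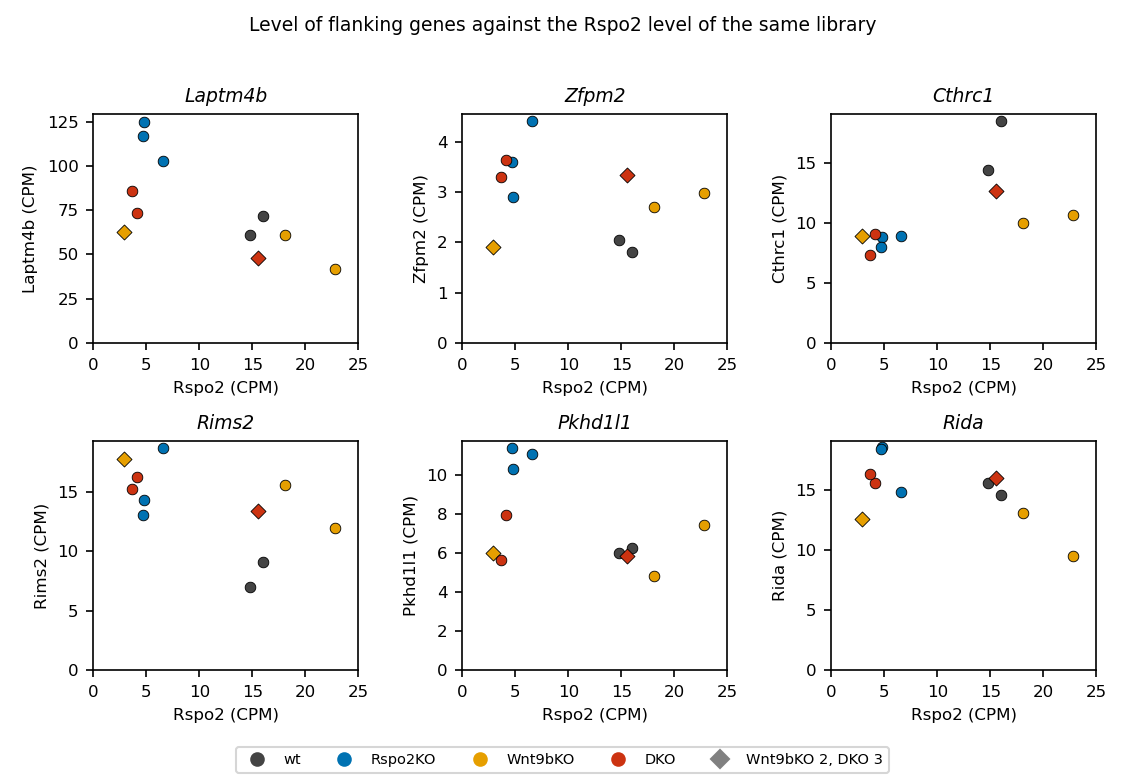
Level of 6 flanking genes (CPM, vertical axis) against the *Rspo2* level of the same library (CPM, horizontal axis), with 1 point per library, colored by label, and diamonds for the libraries labelled Wnt9bKO 2 and DKO 3. In the *Cthrc1* panel the Wnt9bKO 2 diamond, at 8.94 CPM, is the lowest Wnt9bKO point and the DKO 3 diamond, at 12.7 CPM, is the highest DKO point.

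Beyond single genes, Rspo2KO and wt libraries did not overlap for 27 of the 54 genes. In 13 (24.1%) Rspo2KO was higher, against 17.2% of all genes and 16.9% of the rest of chromosome 15, and in 14 (25.9%) it was lower, against 15.7% and 21.1%. For these genes the position of the library labelled DKO 3 was compared with the other DKO libraries. Where Rspo2KO was lower than wt, DKO 3 was above both other DKO libraries in 12 of 14 genes (85.7%), against 37.1% of such genes over all genes and 35.8% on the rest of chromosome 15. Where Rspo2KO was higher, DKO 3 was below both in 5 of 13 (38.5%), against 36.8% over all genes, and above both in 3. Over all 54 genes DKO 3 was above both in 31 (57.4%), against 36.9% of all genes. One-sided positions were also seen in libraries whose *Rspo2* counts go with their labels. Rspo2KO 1 was below both others of its label in 36 of the 54 genes (66.7%), against 42.2% of all genes. Wnt9bKO 1 was below both others of its label in 28 (51.9%), against 37.7%.

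The library labelled Wnt9bKO 2 gave no split like that of DKO 3. It was below both other Wnt9bKO libraries in 5 of the 14 genes that were lower in Rspo2KO (35.7%, against 34.3% of such genes over all genes), and above both in 3 of the 13 that were higher (23.1%, against 31.9%). The clearest single case in DKO 3 was *Snx31* (36504062 to 36555573, 6.47 Mb away), a sorting nexin. It had 1.97 and 1.45 CPM in wt and 1.82 CPM in DKO 3, but 0.470 and 0.561 CPM in the other DKO libraries, 0.374 to 0.668 CPM in Rspo2KO and 0.540 to 0.656 CPM in Wnt9bKO. *Eif3e* had 363 CPM in DKO 3, between its wt values, against 255 and 277 CPM in the other DKO libraries. The pattern was looked for after the *Rspo2* counts of both libraries were known, and it was not tested.

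**Figure D4:**
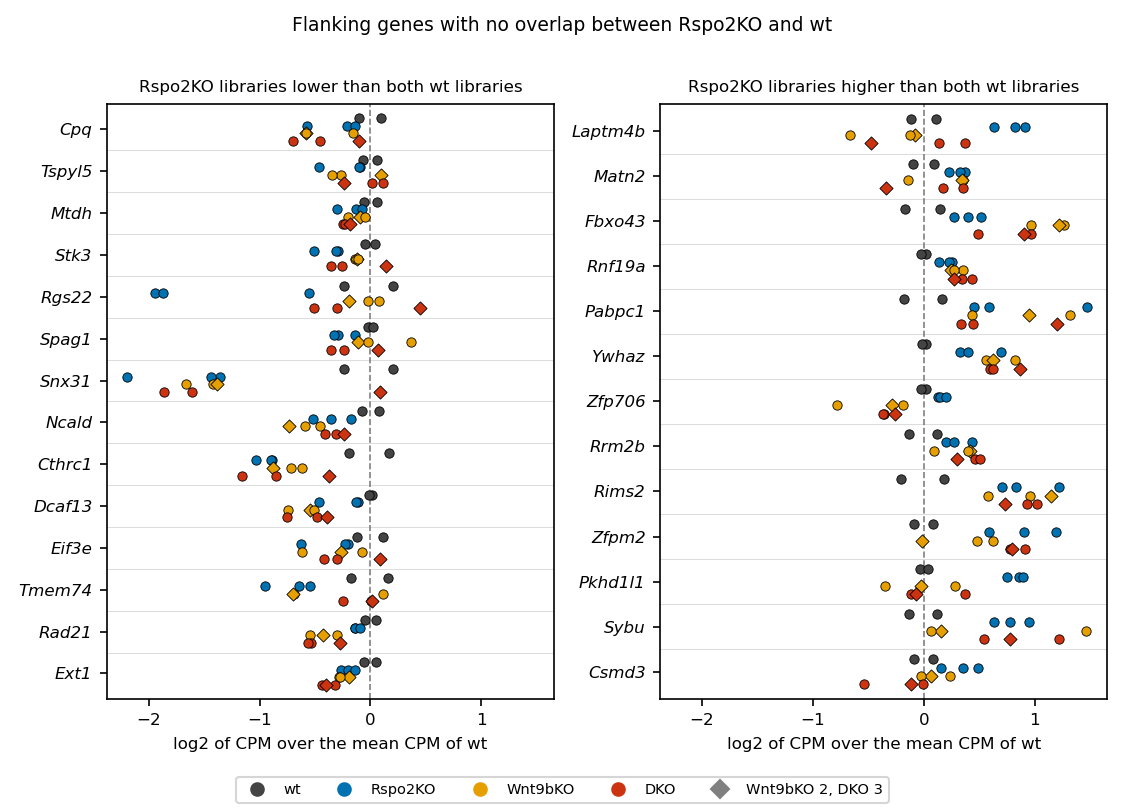
Level of the 27 flanking genes whose Rspo2KO and wt libraries did not overlap, as log2 of CPM over the mean CPM of wt, with 1 point per library, colored by label, and diamonds for the libraries labelled Wnt9bKO 2 and DKO 3. In the left panel, which holds the 14 genes lower in Rspo2KO, the DKO 3 diamond lies to the right of both other DKO points for 12 genes, and for *Snx31* it lies at the wt level.

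Wnt9bKO against wt served as a comparison whose mutation is not on chromosome 15. Here 20 of the 54 genes (37.0%) were called, against 32.8% of all genes and 33.6% of the rest of chromosome 15. Of these, 8 were higher (14.8%, against 16.8% of all genes) and 12 were lower (22.2%, against 16.0%). The count was 19 without both libraries that go against their labels. It fell to 8 without wt 1 and to 10 without wt 2, and all-gene calls fell to 17.6% and 18.8%. The small nuclear RNA level moved with the Wnt9bKO and DKO labels, as did the summed level of 5 erythroid markers, at 3850 to 4780 CPM in wt, 4350 to 5620 in Rspo2KO, 1700 to 2240 in Wnt9bKO and 1650 to 2720 in DKO. The sum of 6 forebrain and eye markers was 49.8 to 58.3 CPM in wt, 59.3 to 71.4 in Rspo2KO, 76.8 to 149 in Wnt9bKO and 81.8 to 99.5 in DKO. None of these markers was at 0 in all libraries, and the part of these levels in the calls was not tested.

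Among the genes that were lower, *Ankrd46* (36477668 to 36496820, 6.52 Mb away), an ankyrin repeat protein, was at 77.8 and 74.3 CPM in wt, 64.6, 72.5 and 76.0 in Rspo2KO, 32.7, 37.6 and 40 in Wnt9bKO and 34.2, 36.5 and 44.6 in DKO. Its log2 fold change was -1.05 in Wnt9bKO (SE 0.13, edgeR adjusted p = 6.01e-05) and -0.98 in DKO (SE 0.13, adjusted p = 0.000112). *Eif3h* (51786558 to 51865523, 8.62 Mb away) was at 290 and 329 CPM in wt, 246, 315 and 318 in Rspo2KO, 147, 147 and 166 in Wnt9bKO and 168, 166 and 185 in DKO. It fell by 1.01 on the log2 scale in Wnt9bKO (SE 0.13, edgeR adjusted p = 6.41e-05) and by 0.84 in DKO (adjusted p = 0.000326). For *Ankrd46* and *Eif3h* every Wnt9bKO and DKO library was below every wt and Rspo2KO library, and the average *Rspo2* label effect was -0.02 (SE 0.09) and 0.05 (SE 0.09), or -0.07 (SE 0.09) and 0.0 (SE 0.10) without both libraries that go against their labels.

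*Snx31* had the largest fall in Wnt9bKO, -1.45 (SE 0.49, edgeR adjusted p = 0.0340), and -0.82 in DKO (SE 0.46, adjusted p = 0.207), where DKO 3 stood apart. Without both libraries that go against their labels *Snx31* fell in DKO by 1.70 (SE 0.40, edgeR adjusted p = 0.00855). Its call in Wnt9bKO was lost in 5 of 20 alternatives (adjusted p 0.00458 to 0.184). *Cthrc1* fell by 0.74 in Wnt9bKO (SE 0.20, adjusted p = 0.0113) and by 0.76 in DKO (SE 0.20, adjusted p = 0.0116). The cohesin gene *Rad21* had 367 and 344 CPM in wt, 322 to 334 in Rspo2KO, 243 to 289 in Wnt9bKO and 240 to 293 in DKO. It fell by 0.42 and 0.45 (edgeR adjusted p = 0.0121 and 0.00971).

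Among the genes that were higher, *Fbxo43* (36150060 to 36164884, 6.86 Mb away), a meiotic inhibitor of the anaphase-promoting complex, was at 1.07 and 1.33 CPM in wt, 1.72, 1.58 and 1.45 in Rspo2KO, 2.88, 2.80 and 2.34 in Wnt9bKO and 2.35, 1.68 and 2.25 in DKO. It rose by 1.13 in Wnt9bKO (SE 0.27, edgeR adjusted p = 0.00536) and by 0.78 in DKO (SE 0.27, adjusted p = 0.0463). The DKO call of *Fbxo43* was lost in 13 of 21 alternatives, among them DESeq2 (adjusted p = 0.136) and the fit without both libraries that go against their labels (0.72, adjusted p = 0.107), and its adjusted p over them ran from 0.0311 to 0.233. *Pabpc1* (36595661 to 36609668, 6.41 Mb away) was at 141 and 179 CPM in wt, 443, 219 and 240 in Rspo2KO, 216, 308 and 400 in Wnt9bKO and 217, 202 and 368 in DKO. Its rise was called in Wnt9bKO (0.94, SE 0.32, edgeR adjusted p = 0.0369) and not in DKO (0.71, SE 0.32, adjusted p = 0.115), and its values varied widely within each mutant label. The Wnt9bKO call of *Pabpc1* was lost in 7 of 21 alternatives (adjusted p 1.93e-07 to 0.244). *Rims2* rose by 0.90 in Wnt9bKO (adjusted p = 0.00474) and 0.88 in DKO (adjusted p = 0.00639). *Ywhaz* had 278 and 272 CPM in wt, 345 to 445 in Rspo2KO, 405 to 486 in Wnt9bKO and 415 to 502 in DKO, with log2 fold changes of 0.67 in Wnt9bKO (SE 0.14, edgeR adjusted p = 0.00214) and 0.70 in DKO (SE 0.14, adjusted p = 0.00211).

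In DKO against wt, 14 of 54 genes (25.9%) were called, against 27.5% of all genes and 29.4% of the rest of chromosome 15. Of these, 7 were higher, against 14.3% of all genes, and 7 were lower, against 13.1%, which is 13.0% of the members in either direction. The count was 15 without both libraries, 7 without wt 1 and 6 without wt 2. *Zfpm2* was called here, at 0.83 (SE 0.26, edgeR adjusted p = 0.0300), as was *Pop1*, which fell by 0.82 (SE 0.20, adjusted p = 0.00825) from 44.7 and 51.5 CPM in wt. The call of *Zfpm2* was lost in 8 of 21 alternatives (adjusted p 0.0182 to 0.193), among them DESeq2, the offset for GC content and length, and the fits that left out any 1 DKO or wt library. Wnt9bKO and DKO were compared with the same wt libraries, so their calls are not independent of each other.

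**Figure D5:**
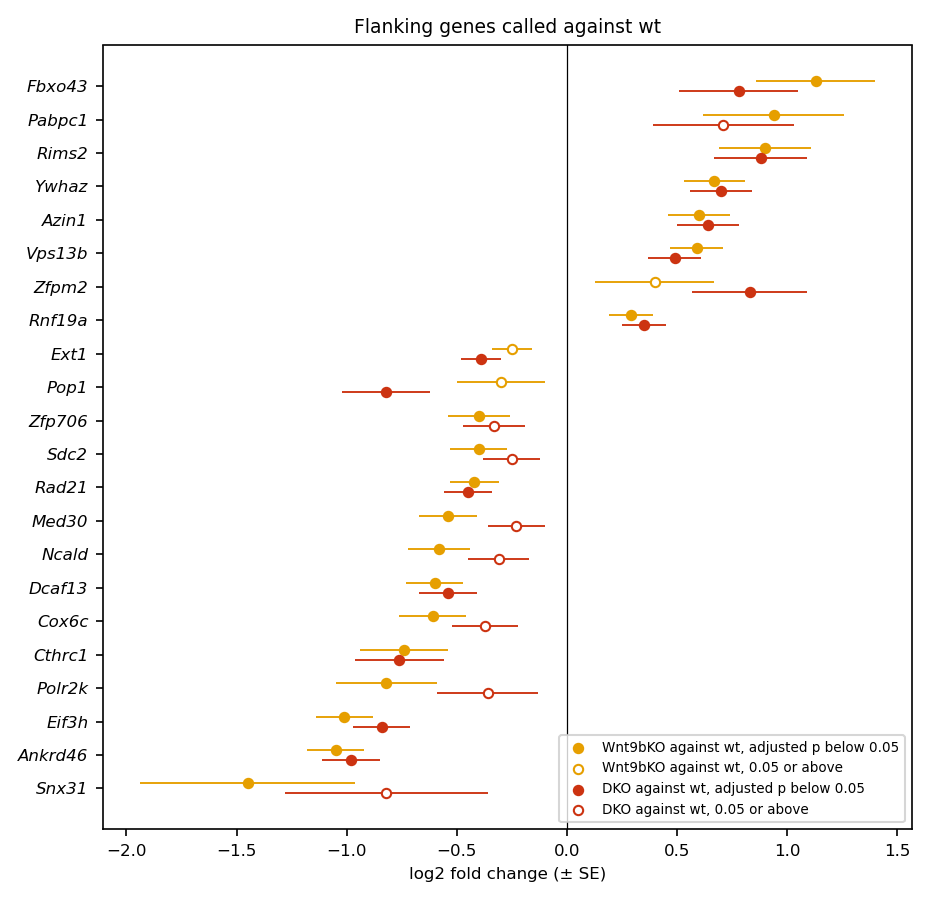
Log2 fold change against wt (± SE) in Wnt9bKO and in DKO for 22 of the flanking genes called in at least 1 of these comparisons, with filled points for an edgeR adjusted p below 0.05. The fold changes run from -1.45 for *Snx31* to 1.13 for *Fbxo43*, both in Wnt9bKO.

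By distance, 0 of the 12 genes within 2 Mb of *Rspo2* were called in Wnt9bKO against wt, 5 of the 10 from 2 to 5 Mb and 15 of the 32 from 5 to 10 Mb, against 32.8% of all genes, and in DKO the counts were 1, 4 and 9, against 27.5%. Within 2 Mb the gene closest to the threshold in Wnt9bKO was *Emc2*, with a log2 fold change of -0.41 (SE 0.16, edgeR adjusted p = 0.0601). Without both libraries named above *Emc2* was called, at -0.51 (SE 0.17, adjusted p = 0.0355), so that 1 of the 12 was. *Emc2* was also called without the low-count filter, with the replicate number as a block and with the GC and length offset, where *Eif3e* (block) and *Nudcd1* (offset) were called as well. The difference between the bins was not tested.

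Grouped by the known role of their products, the 9 tested genes of translation and RNA synthesis (*Eif3e*, *Eif3h*, *Pabpc1*, *Pop1*, *Dcaf13*, *Utp23*, *Polr2k*, *Med30* and *Eny2*) had 1 rise and 4 falls in Wnt9bKO and 0 rises and 3 falls in DKO, with a median log2 fold change of -0.30 and -0.23. Over all genes 16.8% rose and 16.0% fell in Wnt9bKO and 14.3% rose and 13.1% fell in DKO, with a median of 0.01 in both. In DKO the falls were those of *Eif3h*, *Pop1* and *Dcaf13*, of which *Dcaf13* acts in ribosome biogenesis. The protein turnover group (3 genes) had 3 rises and 0 falls in Wnt9bKO, with a median of 0.36. In DKO that group had 2 rises and 0 falls, with a median of 0.35. The secretory pathway group (6 genes) had 1 rise, *Vps13b*, and 1 fall, *Snx31*, in Wnt9bKO. *Vps13b*, a Golgi protein whose human gene is mutated in Cohen syndrome, rose by 0.59 in Wnt9bKO (SE 0.12, edgeR adjusted p = 0.00162), but was not called there or in DKO with the GC and length offset. It shares 5344 bases with *Cox6c*, a subunit of cytochrome c oxidase on the opposite strand that fell by 0.61 (adjusted p = 0.00692). The strand setting of the counting is not given in the sources used here, so reads in the shared stretch cannot be assigned to either gene with certainty. With edgeR, all libraries and the low-count filter, no group had a call in Rspo2KO against wt or in the average *Rspo2* label effect.

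The flanking genes with a known part in skeleton or face were not called in Rspo2KO against wt, DKO against Wnt9bKO or the average effect. That holds for edgeR with all libraries and the low-count filter, while *Cthrc1* and *Zfpm2* were among the calls by other settings given above. In DKO against wt the same fit called *Cthrc1*, *Ext1* and *Zfpm2*, and 27.5% of all genes. Of the 8 skeleton or face genes, *Cthrc1*, *Ext1* and *Zfpm2* had an unadjusted p below 0.05 in the average effect, against 9.38% of all genes. Without both libraries that go against their labels they were *Cthrc1*, *Trps1* and *Zfpm2*, against 8.7%. *Trps1* (50654752 to 50890463, 7.48 Mb away), a GATA-type repressor whose human gene is mutated in trichorhinophalangeal syndrome, was at 128 and 147 CPM in wt, 136, 118 and 137 in Rspo2KO, 181, 129 and 162 in Wnt9bKO and 138, 134 and 167 in DKO. Its average effect was -0.09 (SE 0.10, edgeR adjusted p = 0.828), and -0.21 (SE 0.08, adjusted p = 0.462) without both libraries. *Ext1* (53064038 to 53346159, 9.89 Mb away), which builds heparan sulfate chains and whose human gene is mutated in multiple exostoses, was at 94.9 and 88.0 CPM in wt, 76.2, 79.4 and 83.2 in Rspo2KO, 74.9, 79.8 and 75.6 in Wnt9bKO and 67.5, 73.1 and 69.1 in DKO.

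*Ext1* was lower than wt in all 9 mutant libraries. Its fall of 0.39 in DKO passed the test (SE 0.09, edgeR adjusted p = 0.00781), and those of -0.25 in Wnt9bKO and -0.20 in Rspo2KO did not (adjusted p = 0.0532 and 0.426). *Klf10*, an early target of TGF-beta, had 22.8 to 30.2 CPM and an average effect of 0.07 (SE 0.09), or 0.16 (SE 0.09) without both libraries. *Matn2*, a matrilin of the extracellular matrix, had 4.49 to 7.35 CPM and an average of 0.10 (SE 0.15), or 0.22 (SE 0.14) without both libraries.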

How the data were processed

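The deposited values are whole-number counts per gene, which the authors made with HTSeq-Count, without normalization, from single-end reads that Cutadapt had trimmed and STAR had aligned to GRCm38. Tool versions, the annotation release and the strand setting are not given in the sources used here. Groups came from the sample labels, with 2 wt libraries against 3 samples per genotype in the study's methods. The 65 genes and the lists of roles and markers were chosen with earlier results of these data known. Of 38561 genes, 36723 matched the GENCODE annotation of GRCm38.

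Counts were fitted in R 4.3.3 with edgeR 4.0.16 (filterByExpr, TMM factors, 1 mean per label, all 11 libraries). P-values are two-sided and adjusted by the Benjamini-Hochberg method over the 17317 genes tested. Replicate pairs differed more than sampling noise (chi-square per degree of freedom 5.28 to 35.4), so no library was counted as a duplicate. Alternatives were DESeq2 1.42.0, RLE and upper-quartile factors, other count filters, fewer groups in the model, a loess offset on GC content and length (span 0.3), the replicate number as a block, the study's cut-offs and leaving out libraries. The study's cut-offs (p below 0.05 and over 1.5-fold) were applied to unadjusted p-values of the edgeR fit, whereas the study used DESeq2. Genes described 1 by 1 were the 4 nearest tested genes on each side of *Rspo2*, any called in the average *Rspo2* label effect (10 at most), the 3 largest rises and falls called in each other comparison, 8 genes known from skeleton, face or matrix, and the 3 highest per length. Others were named after their values were seen. Figures were drawn with matplotlib 3.10.9. The counts of called genes include 1 gene that is not reported here by name.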

Additional observations from a re-analysis of the deposited data

How the results depend on the processing

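The counts of called flanking genes depended on the count tool, the low-count filter and the call rule where few or none were called. In Rspo2KO against wt the count of 0 became 4 with DESeq2, 7 without the low-count filter and 9 when called at an unadjusted p below 0.05 and over 1.5-fold. In the average *Rspo2* label effect 0 became 1 with DESeq2, 5 without the filter, 1 without both libraries labelled Wnt9bKO 2 and DKO 3, and 3 under the unadjusted rule. In DKO against Wnt9bKO 0 became 1 without the filter (*Pop1*) and 1 under the unadjusted rule, and in the interaction 0 became 4 and 8. In Wnt9bKO against wt 20 became 13 under the unadjusted rule and 8 to 22 when single libraries were left out, and in DKO against wt 14 became 6 to 17 (8 and 7 without wt 1, 10 and 6 without wt 2).

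Of 856 recomputed log2 fold changes of named genes, 791 kept their direction and side of the threshold, 42 were no longer called, 6 became called and 17 changed sign. Those 17 were average *Rspo2* label effects near 0. With single libraries left out, *Nudcd1* ran from -0.07 to 0.02 and *Ankrd46* from -0.08 to 0.02. *Fbxo43* was -0.03 with the GC and length offset, -0.01 with the replicate block added and 0.0 without both libraries, and -0.05 to 0.1 with single libraries left out. *Eif3h* was -0.02 with the offset and the replicate block. The replicate numbers did not pair the libraries (correlations of -0.105 to 0.236 over 15 same-number pairs, 3 of them over 0.1). With the number as a block, 21 genes were called in Wnt9bKO, 17 in DKO and 0 in the other comparisons. With 2 wt libraries and 3 per mutant label, changes of the size seen under the *Rspo2* label (median absolute log2 fold change 0.14) are close to their standard errors.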
